A study of Arabidopsis thaliana with 15 samples.

Results

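The WRKY genes of *Arabidopsis thaliana* encode plant transcription factors, and 44 of them were followed on 15 one-color Agilent arrays. The genes were taken from a list of WRKY loci that includes 8 regulators of leaf senescence (*WRKY53*, *WRKY6*, *WRKY70*, *WRKY54*, *WRKY75*, *WRKY45*, *WRKY55* and *WRKY57*). A probe was matched to 42 of the 44 genes, out of 25410 loci with a matched probe, while *WRKY4* and *WRKY61* were not analysed here. The reference table lists 72 WRKY loci in all, and the other 28 are given only as a comparison. Of several probes for a gene, the one that was brightest over all arrays was used. In 40 of them the probe stood clearly above background throughout 1 group or more. The exceptions were *WRKY42*, a regulator of phosphate transport, and *WRKY72*, which has a role in resistance to root-knot nematodes. No WRKY probe was saturated on any array.

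WRKY proteins carry 1 or more copies of a DNA-binding domain with a zinc finger, and they bind a short promoter element called the W box. The number of domains and the type of zinc finger divide them into groups I, II and III, and group II is divided further into IIa to IIe. They act in defence, in salicylic acid and jasmonic acid responses, in phosphate nutrition and in leaf senescence, and many of them regulate their own genes or those of other WRKY proteins. In senescing leaves *WRKY53*, *WRKY75*, *WRKY45* and *WRKY55* are known as promoters of the process, whereas *WRKY54* and *WRKY70* hold it back.

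The series compared plants with more or less activity of ANAC046, a NAC transcription factor that acts in chlorophyll (Chl) degradation and senescence. All plants were in the Col-0 background, and each of the 5 groups had 3 arrays of total RNA. At 50 days after sowing (DAS), leaves of soil-grown untreated plants were taken from the wild type (WT) and from overexpressors (OX, labelled 35S:ANAC046:NOS). At 5 days after the start of a dark treatment (DAD), material was taken from WT, from the knockout (KO, labelled anac046, a transposon insertion line) and from plants with the dominant repressor (SRDX, labelled 35S:ANAC046-SRDX:NOS). The viral 35S promoter is active in most plant tissues, so neither transgene follows the native pattern of *ANAC046*, and the OX and SRDX plants also carry the native gene. OX and SRDX were each taken from 3 independent lines, read here as 1 array per line, and the KO is a single line. The labels describe the dark-treated material as seedlings on agar under foil, whereas the methods name leaves of plants that had been moved to darkness at a later age, and this was left unsettled.

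Signals are given as log2 of the signal relative to the array median, after quantile normalization of the 15 arrays, so that a difference of 1 is a doubling. Differences were tested with limma, and a gene is said to have risen or fallen only where the p-value, adjusted by Benjamini-Hochberg over all genes tested, stayed below 0.15. The share of all tested genes that passed is given with the counts of WRKY genes. In total RNA from many cells, a change in the number of cells that express a gene and a change in the RNA per cell cannot be told apart.

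The signal of *ANAC046* itself was 0.42, 0.54 and 0.77 in WT at 50 DAS and 2.64, 8.95 and 9.01 in OX lines 1, 2 and 3. OX line 1 therefore stood 2.06 above the WT mean and the other 2 lines 8.37 and 8.43. Over all genes tested, line 1 also lay closer to WT, with a standard deviation of its differences of 0.50 against 1.11 and 1.24, so results for OX are given with and without it. In the dark, the *ANAC046* probe read 5.11 to 5.35 in WT and 6.29 to 6.42 in SRDX, and it was not well above background on any KO array. Of all probes, 76.3% to 80.9% were well above background in WT at 5 DAD, 67.0% to 68.7% in KO, 77.5% and 77.6% in SRDX lines 1 and 2, and 68.4% in SRDX line 3. SRDX line 3 shared its slide with the 3 KO arrays, while each WT group, OX and SRDX lines 1 and 2 lay on slides of their own, so that the slide and the genotype of a group cannot be told apart when it is set against WT. All 6 leaf marker genes were above background on all arrays, with a summed signal of 1250 to 1350 times the array median in WT at 5 DAD. This sum was 1960 to 2460 in KO and 1650 to 2440 in SRDX, and 8500 to 8730 in WT and 8330 to 8780 in OX at 50 DAS. Quantile normalization sets the brightest probes by rank, and *LHCB1.3* read 11.24 on all 3 OX arrays. Single leaf markers differed by -0.59 to 0.71 between OX and WT, with 4 means higher and 2 lower. Of 12 root markers, *PLT1*, *RSL4*, *PIN2*, *IRT1* and *CASP1* were above background on no array, and the summed signal of the list was 1.37 to 1.68 in WT at 5 DAD against 0.882 to 1.14 in KO and 0.898 to 1.13 in SRDX, and 1.08 to 1.35 in WT against 1.48 to 2.36 in OX at 50 DAS. In WT at 50 DAS and in KO, 11 of the 12 root markers were above background on no array. The exception was *NRT2.1*, so the rest of the sum in these groups is signal not above background. At 5 DAD, the mean of *NRT2.1* was -0.73 in WT, -2.14 in KO and -2.83 in SRDX. The part of either list in the WRKY values was not tested. WT array 1 at 50 DAS stood apart in the salicylic acid marker *PR1* (3.01 against -3.98 and -4.16), which was looked at after values had been seen, and also in *WRKY50* (0.18 against -2.69 and -1.82) and *WRKY51* (-0.58 against -3.52 and -2.93).

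To describe where the WRKY genes stood before any change of ANAC046, both WT groups were set side by side. At 5 DAD, 28 of 40 tested WRKY genes were higher than at 50 DAS and 6 were lower, while 45.9% and 40.2% of all tested genes passed in these directions. The median difference was 2.78 for the WRKY genes and 0.13 for all genes. Among them, 7 genes entered the test only because of their signal in the dark, and of the 33 that were above background on every array of both groups, 21 rose and 6 fell, beside 40.8% and 48.2% of all such genes, with medians of 2.42 and -0.13. The arrays at 5 DAD lay all above those at 50 DAS for 29 WRKY genes and all below for 6, beside 43.5% and 39.0% of all genes. Age, medium, labelled tissue, light and scan day all differed between both groups, so these differences describe the 2 groups and cannot be told apart by cause.

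**Figure D1:**
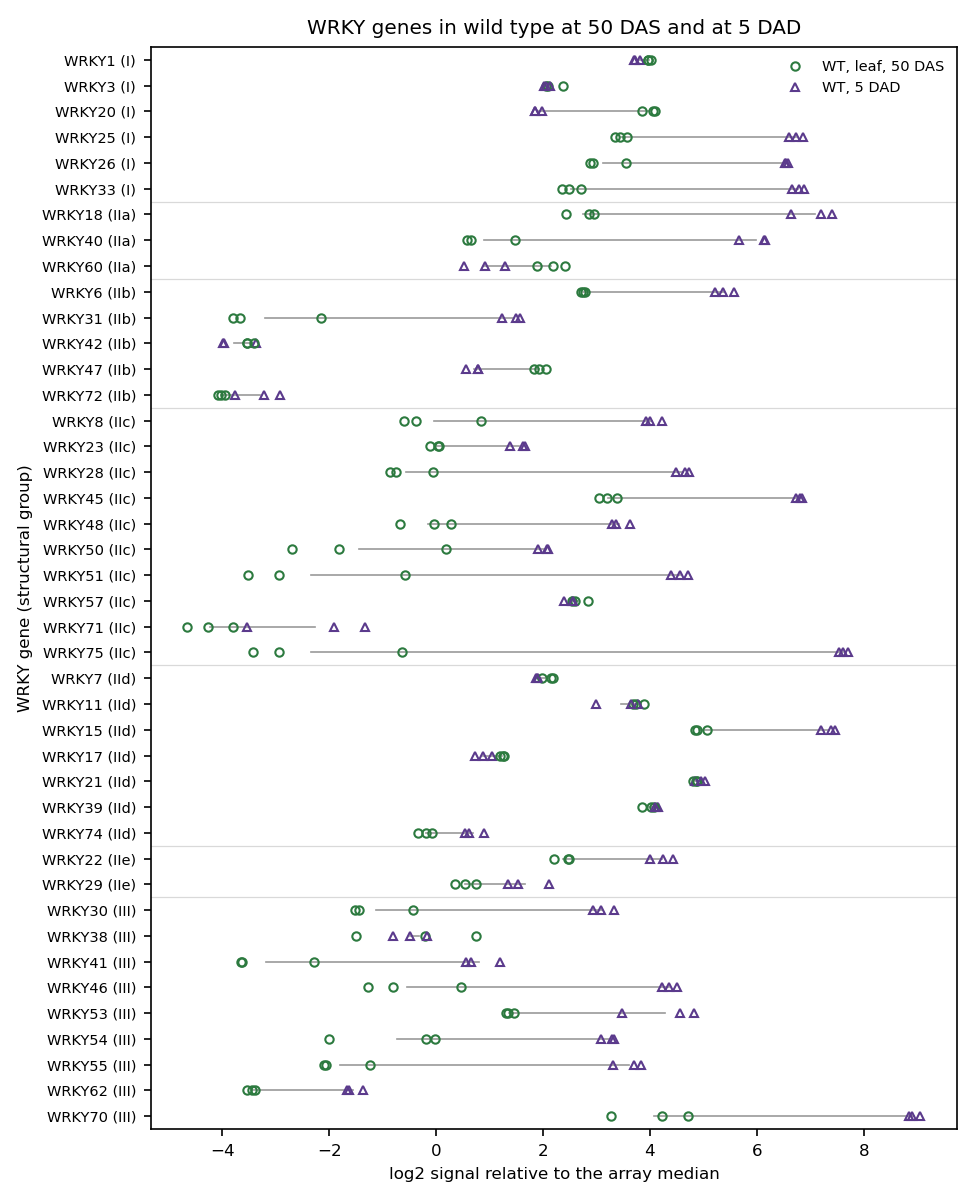
Signal of 42 WRKY genes (log2, relative to the array median) in WT at 50 DAS (circles) and at 5 DAD (triangles), 1 symbol per array, with a gray line between the group means and genes ordered by structural group. *WRKY75* and *WRKY51* stand furthest to the right of their values at 50 DAS, and *WRKY20*, *WRKY60* and *WRKY47* stand to the left.

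*WRKY75* (AT5G13080) is a group IIc factor that promotes senescence and responds to phosphate starvation. It read -0.63, -2.94 and -3.43 in WT at 50 DAS, where only 1 array was above background, and 7.61, 7.71 and 7.54 at 5 DAD. The arrays did not overlap, and the means differed by 9.95, a value that rests on a probe mostly not above background at 50 DAS and tested only because of its signal in the dark. *WRKY51*, which together with *WRKY50* represses jasmonic acid responses when salicylic acid is high, differed by 6.90, but it was above background on 1 of 3 arrays at 50 DAS. *WRKY55* rose by 5.41, *WRKY28* by 5.19 and *WRKY40* by 5.09, all measured on both sides.

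Among the other senescence regulators, *WRKY53* (AT4G23810) read 1.3, 1.34 and 1.46 at 50 DAS and 3.47, 4.56 and 4.82 at 5 DAD. The arrays at 5 DAD were all higher but spread over more than 1 log2 unit, and the rise was 2.92 ± 0.35 (SE, adjusted p = 0.000323). *WRKY70* (AT3G56400) read 4.72, 3.27 and 4.23 against 8.90, 9.06 and 8.85, a rise of 4.86. *WRKY54* rose by 3.97, *WRKY45* by 3.58 and *WRKY6* by 2.64. *WRKY57* (AT1G69310), a repressor of jasmonic acid-induced senescence, did not follow them. Its 3 values of 2.84, 2.54 and 2.60 at 50 DAS overlapped with 2.54, 2.39 and 2.57 at 5 DAD (difference -0.16, adjusted p = 0.231), and its second, dimmer probe gave 0.25.

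By structural group, 8 of 9 tested genes of group III and 9 of 10 of group IIc rose, beside 45.9% of all genes, and the exceptions were *WRKY38* and *WRKY57*. Of these, *WRKY41* and *WRKY62* of group III and *WRKY75*, *WRKY71*, *WRKY51* and *WRKY50* of group IIc were tested only because of their signal at 5 DAD, and of the rest 6 of 7 and 5 of 6 rose. The probes of *WRKY38* disagreed here, at -0.16 for the brighter and 1.58 for the other. Both members of group IIe, *WRKY22* and *WRKY29*, which act downstream of a MAP kinase cascade in immunity, rose by 1.84 and 1.12. Group IId, whose members bind calmodulin, had the smallest median difference by the brightest probes, 0.09. Of its 7 genes *WRKY15* and *WRKY74* rose by 2.42 and 0.88, whereas *WRKY17* and *WRKY7* were lower (-0.36 and -0.23). The fall of *WRKY17* rests on its brighter probe, since the other, dimmer probe gave 0.67. *WRKY39* differed by 0.14 in its brighter probe and by 1.62 in the other, and it passed as higher with the mean of its probes. The other probes of *WRKY15* gave 3.36 and 2.75. In group I, the heat- and defence-related *WRKY25*, *WRKY26* and *WRKY33* rose by 3.28, 3.43 and 4.26, and *WRKY20* fell from 4.09, 4.06 and 3.85 to 1.98, 1.85 and 1.85, the largest fall among the tested genes (-2.11 ± 0.10, SE). Group IIa was divided, although its 3 proteins are known to bind each other. *WRKY18* and *WRKY40* rose by 4.33 and 5.09, while *WRKY60* went from 2.42, 1.88 and 2.18 to 0.52, 0.91 and 1.29 (-1.25 ± 0.23, SE). *WRKY71* and *WRKY62* were not above background on any array at 50 DAS, and their signals at 5 DAD were at least 1.21-fold and 1.98-fold higher.

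In leaves at 50 DAS, the comparison of OX with WT asked which genes follow an excess of ANAC046. Only *WRKY57* passed the limit among 35 tested WRKY genes, it was higher in OX, and no WRKY gene was lower. Among all 20647 genes, 0.0920% passed as higher and 0.00484% as lower, so nearly nothing passed in this comparison as a whole. At an unadjusted p under 0.05, 14 WRKY genes were higher and 2 lower, beside 9.30% and 13.8% of all genes. The median difference of the WRKY genes was 0.65, and that of all genes was -0.08. It was 1.14 without OX line 1 and 0.99 without WT array 1, with all genes at -0.07 and -0.09. All 3 OX lines were above all 3 WT arrays for 15 WRKY genes and below for 2, which applied to 12.9% and 21.1% of all genes. Among the 32 WRKY genes above background on all 6 arrays, 13 lay above and 2 below, beside 12.8% and 20.4% of all such genes.

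**Figure D2:**
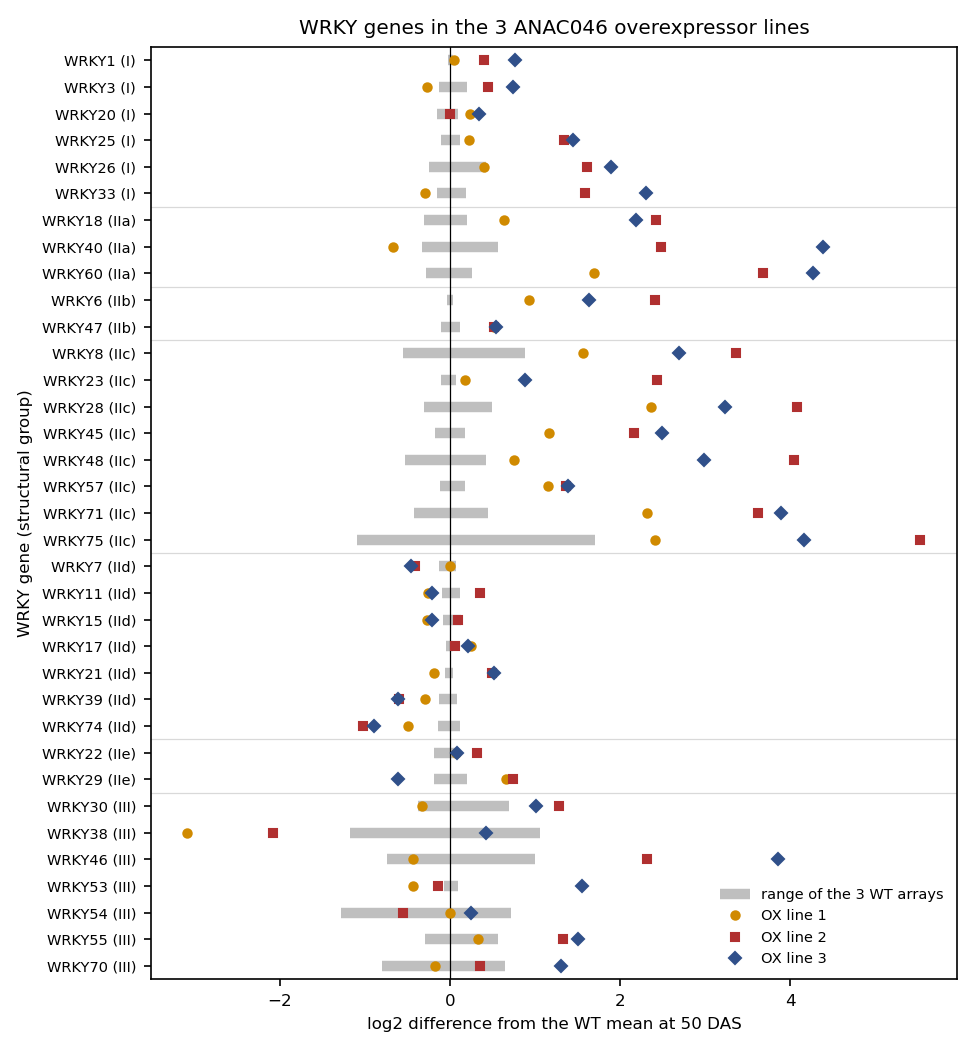
Difference of each OX line from the WT mean at 50 DAS (log2) for the 35 tested WRKY genes, with a gray bar for the range of the 3 WT arrays and genes ordered by structural group. The symbols of all 3 lines lie to the right of the bar for the 8 group IIc genes, and *WRKY40* and *WRKY33* show line 1 to the left of it.

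*WRKY57* read 2.84, 2.54 and 2.60 in WT and 3.81, 4.03 and 4.05 in OX lines 1, 2 and 3. All 3 lines were about equally high, line 1 included, and the rise was 2.47-fold (log2 difference 1.31 ± 0.15, SE, adjusted p = 0.131). A second probe of the gene gave 1.02. The call was lost without any single WT array and without OX line 2 or 3, with adjusted p-values from 0.00333 to 0.468 over the 6 fits with 1 array left out.

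The differences of the 8 tested genes of group IIc ran from 1.16 to 4.04, and none passed apart from *WRKY57*. The 3 OX lines were above all 3 WT arrays for all 8, beside 12.9% of all genes, and the lines' median differences were 1.36, 3.49 and 2.84. Of these genes, *WRKY71* and *WRKY75* were tested only because of their signal in OX, and the remaining 6 were above background on all arrays. All 6 lay above WT without overlap, beside 12.8% of all genes measured in this way. Their median difference was 2.24, against 2.57 for all 8. The other group IIc genes, *WRKY50* and *WRKY51*, were too dim to test and their arrays overlapped between the groups. *WRKY28* (AT4G18170), an activator of salicylic acid synthesis, read -0.06, -0.86 and -0.75 in WT and 1.81, 3.53 and 2.68 in OX. Every line was higher than every WT array, the difference was 3.23 ± 0.47 (SE, adjusted p = 0.174), and the second probe gave 3.17. *WRKY75* read 0.08, 3.20 and 1.83 in OX, above its WT values but with line 1 near the highest of them (difference 4.04 ± 1.03, SE, adjusted p = 0.189). *WRKY45* (AT3G01970), which promotes age-dependent senescence, read 3.04, 3.39 and 3.20 in WT and 4.38, 5.37 and 5.70 in OX, where line 1 was again the lowest (difference 1.94 ± 0.35, SE, adjusted p = 0.177). *WRKY71*, a regulator of shoot branching, was not above background in WT and was at least 2.99-fold higher in OX (adjusted p = 0.174). *WRKY8*, *WRKY48* and *WRKY23* differed by 2.54, 2.59 and 1.16. These genes, like *WRKY60* and the group IId genes below, were chosen for mention after their values were seen.

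The 3 genes of group IIa had medians of 0.64, 2.49 and 4.27 in lines 1, 2 and 3. *WRKY60* read 2.42, 1.88 and 2.18 in WT and 3.86, 5.84 and 6.43 in OX. No OX line overlapped with WT, the difference was 3.22 ± 0.66 (SE, adjusted p = 0.189), and it ran against the lower level of this gene in WT at 5 DAD. *WRKY18* differed by 1.75 with all lines higher. *WRKY40* read 0.23, 3.39 and 5.29 in OX against 1.47, 0.66 and 0.58, so that line 1 was below WT and the other 2 lines were far above it (difference 2.07 ± 1.23, SE, adjusted p = 0.310). *WRKY33*, which controls camalexin synthesis, was divided in the same way (2.22, 4.11 and 4.82 against 2.71, 2.36 and 2.48). For *WRKY46*, line 1 lay within the WT range and the other 2 lines above it (-0.98, 1.77 and 3.31 against 0.46, -1.28 and -0.81).

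Among the regulators of senescence, *WRKY6* (AT1G62300) read 2.75, 2.71 and 2.78 in WT and 3.68, 5.16 and 4.38 in OX. The WT arrays were nearly equal and each line was higher (difference 1.66 ± 0.37, SE, adjusted p = 0.189). *WRKY53* read 0.93, 1.23 and 2.92 in OX, with lines 1 and 2 below the WT range and line 3 above it (difference 0.33, adjusted p = 0.685). *WRKY70* (3.90, 4.43 and 5.38) and *WRKY54* (-0.73, -1.29 and -0.48) overlapped with WT, with differences of 0.50 and -0.10. *WRKY55* read -1.46, -0.46 and -0.29 against -1.23, -2.06 and -2.09, a difference of 1.05 with overlap in line 1. None of these regulators passed the limit.

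No group III gene had all 3 OX lines above or below WT among the 7 tested, and the lines' medians were -0.33, 0.35 and 1.31. Group IId had a median of -0.13, with *WRKY74* (-0.80) and *WRKY39* (-0.51) lower in all 3 lines without passing the limit. Whether the groups of the family differ from each other was not tested.

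Without OX line 1, the outcome was different. With lines 2 and 3 alone, 22 of 37 tested WRKY genes were higher and 3 were lower, while 25.8% and 31.3% of all genes passed. *WRKY57* was among those that rose, together with *WRKY60* (3.98), *WRKY28* (3.67), *WRKY71* (3.76), *WRKY45* (2.32), *WRKY6* (2.02), *WRKY75* (4.85), *WRKY40* (3.44), *WRKY33* (1.95) and *WRKY55* (1.41). Of these, *WRKY71* and *WRKY75* were tested only because of their signal in OX. *WRKY71* was not above background on any WT array, so its 3.76 is not a measured fold. *WRKY50* and *WRKY51* also entered this fit only through OX, and they did not pass. *WRKY74* (-0.95), *WRKY39* (-0.61) and *WRKY7* (-0.43) were the 3 that fell, all of group IId. *WRKY53* (0.71, adjusted p = 0.304), *WRKY70* (0.83, adjusted p = 0.252) and *WRKY54* (-0.15, adjusted p = 0.876) did not pass here either. This choice of lines was made after the lines had been seen to differ. With Storey's q-values in place of the adjusted p-value, 20 WRKY genes were higher and 4 lower in OX with all lines, beside 24.6% and 34.5% of all genes. Counted line by line over the 35 tested genes, 17 were above all WT arrays and 10 below in line 1, beside 28.7% and 38.3% of all genes. These counts were 26 and 5 in line 2, beside 34.7% and 50.2%, and 26 and 6 in line 3, beside 40.9% and 46.4%.

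In the dark, the comparison of KO with WT asked what the loss of ANAC046 changes. In KO, 6 of 40 tested WRKY genes were higher and 2 were lower than in WT, beside 18.0% and 14.2% of all 25365 genes. In either direction 32.3% of all genes passed. The median difference was 0.11 for the WRKY genes and 0.02 for all genes, and it was 0.04 without WT array 1 and 0.17 without WT array 2. All KO arrays were above all WT arrays for 9 WRKY genes and below for 6, beside 26.4% and 20.7% of all genes. Of 5 genes of group III that passed, 4 rose and 1 fell, and this group's median difference was 0.66. None of the 6 genes of group I, the 3 of IIa, the 3 of IIb, the 7 of IId or the 2 of IIe passed.

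**Figure D3:**
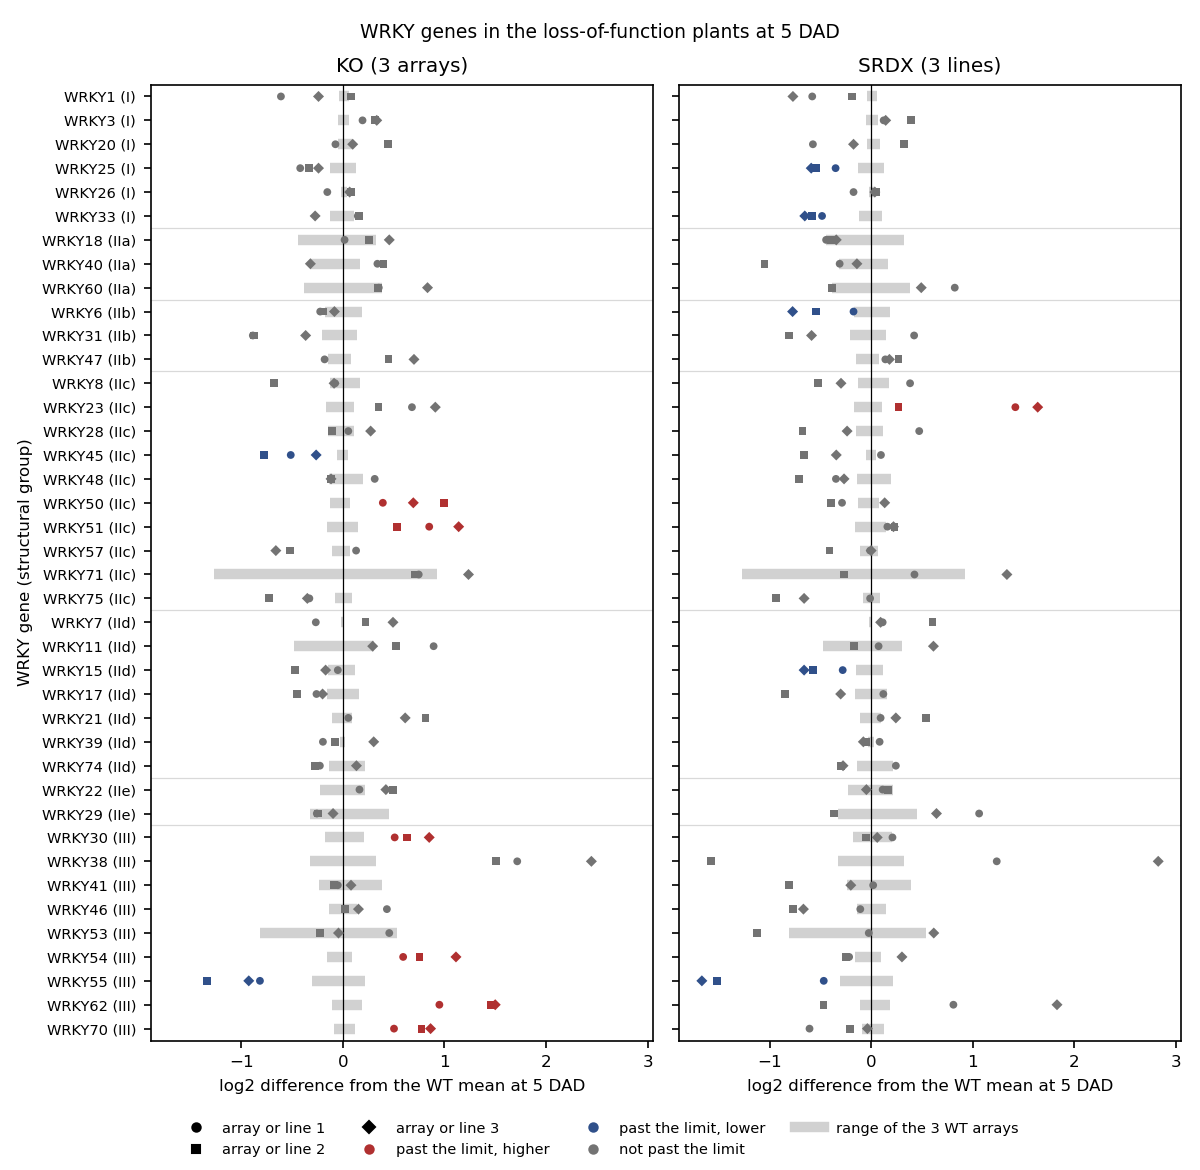
Difference of each KO array and each SRDX line from the WT mean at 5 DAD (log2) for the 40 tested WRKY genes, with a gray bar for the range of the 3 WT arrays. Colored symbols mark genes past the limit: in KO *WRKY30*, *WRKY50*, *WRKY51*, *WRKY54*, *WRKY62* and *WRKY70* to the right and *WRKY45* and *WRKY55* to the left, and in SRDX *WRKY23* to the right and 5 genes to the left.

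*WRKY70* read 8.90, 9.06 and 8.85 in WT and 9.44, 9.71 and 9.80 in KO. All KO arrays were higher than all WT arrays, and the rise was 1.64-fold (log2 difference 0.71 ± 0.19, SE, adjusted p = 0.0445). Its close relative *WRKY54* (AT2G40750) read 3.08, 3.33 and 3.30 in WT and 3.83, 3.99 and 4.35 in KO. It was likewise higher on every KO array, by 1.77-fold (0.82 ± 0.21, SE, adjusted p = 0.0400). *WRKY51* (AT5G64810) read 4.71, 4.57 and 4.40 against 5.41, 5.09 and 5.70, and had the lowest adjusted p-value of the 40 genes in KO (0.84 ± 0.18, SE, adjusted p = 0.0263). The calls of these 3 genes held without any single array of the 9, but with all 15 arrays in 1 fit their adjusted p-values were 0.227, 0.214 and 0.417, and only *WRKY62* and *WRKY55* of the 8 genes passed.

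*WRKY50* (AT5G26170) read 1.90, 2.1 and 2.08 in WT and 2.42, 3.02 and 2.72 in KO, a rise of 0.69 ± 0.21 (SE, adjusted p = 0.0594). *WRKY30* (AT5G24110), a stress-responsive group III gene, read 3.32, 2.93 and 3.08 against 3.62, 3.74 and 3.96 and rose by 0.66 ± 0.17 (SE, adjusted p = 0.0399). *WRKY62* (AT5G01900), which together with *WRKY38* restrains basal defence, had the largest difference of the 8 genes that passed. It read -1.63, -1.66 and -1.36 in WT and -0.60, -0.09 and -0.05 in KO, a dim signal in both (1.31 ± 0.49, SE, adjusted p = 0.106). *WRKY38* read -0.81, -0.49 and -0.16 against 1.23, 1.02 and 1.96, without overlap, but its difference of 1.89 ± 0.92 (SE) did not pass (adjusted p = 0.186). The call of *WRKY30* was lost without WT array 2, that of *WRKY50* without each WT array, and that of *WRKY62* without each WT array, KO array 2 or KO array 3.

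The 2 genes that fell in KO both promote senescence. *WRKY55* (AT2G40740) read 3.83, 3.71 and 3.31 in WT and 2.80, 2.28 and 2.69 in KO. No KO array reached the WT range, and the gene was 2.04-fold lower (log2 difference -1.03 ± 0.32, SE, adjusted p = 0.0683). *WRKY45* read 6.74, 6.80 and 6.84 in WT and 6.28, 6.02 and 6.53 in KO, a small but non-overlapping difference (-0.52 ± 0.22, SE, adjusted p = 0.142). The call of *WRKY55* was lost without WT array 1, WT array 2 or KO array 2, and that of *WRKY45* without any single WT or KO array. With the slide as a random block, *WRKY45* (adjusted p = 0.241) and *WRKY62* (adjusted p = 0.208) no longer passed. With Storey's q-values, 14 WRKY genes were higher and 6 lower, beside 28.5% and 24.7% of all genes.

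*WRKY75* read 7.29, 6.89 and 7.27 in KO, below the WT values of 7.61, 7.71 and 7.54 on every array, but did not pass (-0.47 ± 0.24, SE, adjusted p = 0.218). *WRKY53* read 4.74, 4.06 and 4.24 in KO, inside the wide WT range (0.06 ± 0.48, SE, adjusted p = 0.945). *WRKY6* differed by -0.17 and *WRKY57* by -0.35, with overlap.

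The SRDX comparison asked what the dominant repressor changes, with the same WT arrays as for KO. In SRDX, 1 of 40 tested WRKY genes was higher and 5 were lower than in WT, beside 11.6% and 8.85% of all 25347 genes. The median difference was -0.14 for the WRKY genes and -0.04 for all genes, and the arrays did not overlap for 6 higher and 6 lower WRKY genes, beside 17.6% and 15.2% of all genes. The lines differed among themselves, with 16 WRKY genes above all WT arrays and 11 below in line 1, 8 and 26 in line 2, and 16 and 17 in line 3. Of all genes, 41.3% and 37.5%, 40.1% and 37.8%, and 41.5% and 45.9% did so. Without line 2 the median of the WRKY genes was 0. Without line 3, the line on the KO slide, none of 41 tested genes passed by limma, beside 4.30% and 2.90% of all genes, and 1 was higher and 4 lower at an unadjusted p under 0.05, beside 9.92% and 7.28%. Without line 1, 9 were lower and none higher, beside 9.75% and 11.7% of all genes (1 higher at an unadjusted p under 0.05, beside 13.9%), and without line 2, 5 were higher and 6 lower, beside 20.1% and 18.4%.

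*WRKY55* had the lowest difference from WT among the 40 tested genes in SRDX, as in KO. It read 3.15, 2.1 and 1.95 in lines 1, 2 and 3, all below the 3.83, 3.71 and 3.31 of WT, and it was 2.32-fold lower (log2 difference -1.21 ± 0.32, SE, adjusted p = 0.0590). Both results use the same WT arrays, and without line 3 the difference was -0.99 (adjusted p = 0.186). *WRKY33* (AT2G38470) read 6.88, 6.79 and 6.65 in WT and 6.29, 6.19 and 6.12 in SRDX (-0.57 ± 0.17, SE, adjusted p = 0.0745). *WRKY25* (AT2G30250), its relative in group I, read 6.60, 6.86 and 6.73 against 6.38, 6.19 and 6.14 (-0.50 ± 0.15, SE, adjusted p = 0.0769). For both genes the lines were close to each other and clear of the WT range. *WRKY15* (AT2G23320), an oxidative stress-responsive group IId gene, read 7.47, 7.38 and 7.2 against 7.07, 6.78 and 6.69 (-0.50 ± 0.18, SE, adjusted p = 0.120). *WRKY6*, an activator of the senescence-induced kinase gene *SIRK*, read 5.57, 5.37 and 5.21 against 5.21, 4.84 and 4.61, with line 1 at the lowest WT value (-0.50 ± 0.19, SE, adjusted p = 0.141).

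The gene that rose in SRDX was *WRKY23* (AT2G47260), an auxin-responsive group IIc gene best known from roots. It read 1.39, 1.67 and 1.62 in WT and 2.98, 1.83 and 3.20 in SRDX, with line 2 just above the WT arrays and the other 2 lines far above (1.11 ± 0.34, SE, adjusted p = 0.0853). In KO it read 2.24, 1.91 and 2.47, above all WT arrays but short of the limit (0.65, adjusted p = 0.219). All 6 calls in SRDX were lost without line 3. Each of them except that of *WRKY55* was also lost without any single WT array, and that of *WRKY55* without WT array 1 or 2. The call of *WRKY6* was further lost without any single KO array, whose spread enters the same fit, that of *WRKY15* without KO array 3, and that of *WRKY23* without SRDX line 1. In the fit of all 15 arrays only *WRKY55* and *WRKY15* passed. With the slide as a random block, *WRKY6* (adjusted p = 0.194) and *WRKY15* (adjusted p = 0.176) no longer passed. With Storey's q-values, 1 WRKY gene was higher and 10 were lower in SRDX, beside 18.7% and 17.1% of all genes.

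Of the other senescence regulators in SRDX, *WRKY75* read 7.61, 6.68 and 6.96 (-0.54, adjusted p = 0.209) and *WRKY45* read 6.89, 6.13 and 6.45 (-0.30, adjusted p = 0.424). In both genes line 1 lay inside or above the WT range and the other 2 lines lay below it. *WRKY53* read 4.26, 3.16 and 4.90 (-0.18, adjusted p = 0.842). *WRKY54* (3.02, 2.99 and 3.54), *WRKY70* (8.33, 8.73 and 8.90) and *WRKY57* (2.49, 2.09 and 2.50) overlapped with WT.

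To test whether both ways of reducing ANAC046 activity differ in their WRKY genes, SRDX was compared with KO directly. *WRKY70* was the only one of 40 tested genes that passed, beside 0.163% of all genes as higher and 0.312% as lower. It read 8.33, 8.73 and 8.90 in SRDX and 9.44, 9.71 and 9.80 in KO, so every SRDX line was lower than every KO array, by 2-fold (log2 difference -1.0 ± 0.18, SE, adjusted p = 0.139). The mean was lower in SRDX for 32 of the 40 genes, beside 13278 of all 22127 genes, with a median of -0.25 against -0.07 for all genes. Without SRDX line 2 the median was -0.14 and the mean was higher in SRDX for 14 of 41 genes. All SRDX lines were below all KO arrays for 9 WRKY genes and above for none, beside 8.76% and 2.89% of all genes. At an unadjusted p under 0.05, 9 were lower and none higher, beside 8.35% and 3.44%. All 9 tested group III genes had a lower mean in SRDX, and 4 of them, *WRKY70*, *WRKY54*, *WRKY46* and *WRKY30*, were lower without overlap. *WRKY54* differed by -0.87 ± 0.21 (SE, adjusted p = 0.184) and *WRKY50* by -0.88 ± 0.20 (SE, adjusted p = 0.175). Against SRDX line 3 alone, on the slide of the KO arrays, *WRKY70* differed by -0.75 (adjusted p = 0.558). This sets 1 line against 3 arrays, and the line was assumed to vary like the other arrays at 5 DAD. Its call was also lost without any single WT array, SRDX line 1, or KO array 2 or 3. Without line 3, *WRKY70*, *WRKY54*, *WRKY30*, *WRKY51*, *WRKY50* and *WRKY62* were lower in SRDX, beside 4.87% of all genes as lower and 7.96% as higher. In that fit the SRDX and KO arrays shared no slide, so an effect of the slide would look like an effect of the genotype.

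**Figure D4:**
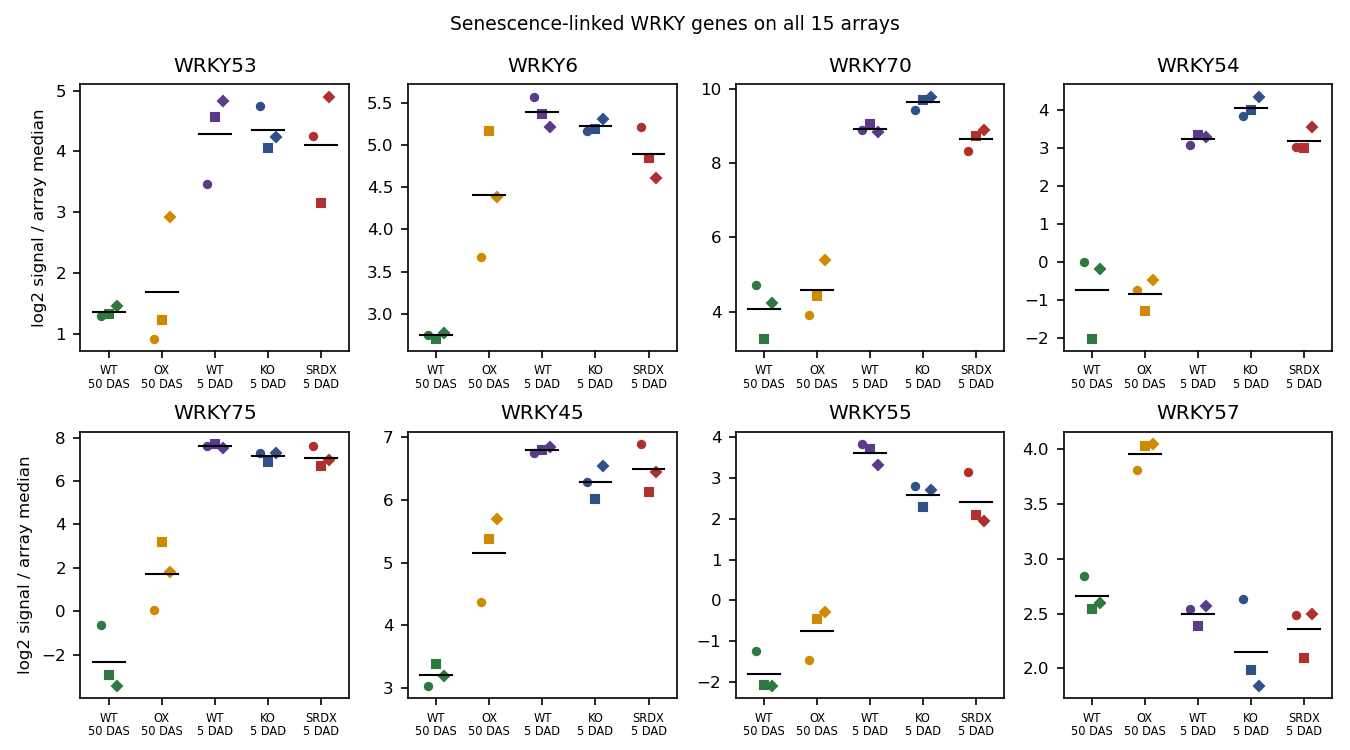
Signal of the 8 senescence-linked WRKY genes (log2, relative to the array median) on all 15 arrays, with circles, squares and diamonds for arrays or lines 1, 2 and 3, a bar for each group mean, and a separate vertical scale in each panel. *WRKY70* and *WRKY54* are highest in KO, *WRKY55* is lower in KO and SRDX than in WT at 5 DAD, and *WRKY57* is highest in OX.

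Over the 5 groups, the 8 senescence regulators thus had different orders of level. *WRKY57* had its highest mean in OX (3.96 ± 0.13, SD, n = 3) and similar means in WT at 50 DAS (2.66 ± 0.16) and at 5 DAD (2.50 ± 0.10). *WRKY6* and *WRKY45* stood between both WT groups in OX, at 4.41 ± 0.74 and 5.15 ± 0.69. *WRKY55* had means of -1.79 ± 0.48, -0.74 ± 0.63, 3.61 ± 0.27, 2.59 ± 0.27 and 2.40 ± 0.65 in WT and OX at 50 DAS and in WT, KO and SRDX at 5 DAD. SRDX differed from KO by -0.19 ± 0.32 (SE, limma, adjusted p = 0.879), which did not pass and does not show that they are equal. *WRKY55* and *WRKY54* lie next to each other on chromosome 2, and in KO one fell and the other rose, by the values given above.

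The remaining 28 WRKY genes and the genes around the family were set beside these results. In KO, 4 of 24 tested other WRKY genes were higher and 7 lower, beside 18.0% and 14.2% of all genes, of which *WRKY67* differed by 1.37. *WRKY9* and *WRKY10* were not well above background on any KO array, so that only a bound can be given. It was at least 2.71-fold lower for *WRKY9*, and no fold could be given for *WRKY10*. Both were tested only because of their signal in WT, as were *WRKY12*, *WRKY13*, *WRKY14*, *WRKY24*, *WRKY35* and *WRKY49*. The count of 7 lower therefore includes genes without a measured level in KO. In SRDX, 4 of 24 were lower and none was higher, also at an unadjusted p under 0.05, beside 8.85% and 11.6%, with *WRKY9* (-2.06, above background in 1 line of 3), *WRKY35* (-1.12, with overlap), *WRKY27* (-1.02) and *WRKY2* (-0.93). In the SRDX comparison, *WRKY9* and *WRKY35* were likewise tested only because of their signal in WT. In OX, none of 13 passed, and 1 was higher and 1 lower at an unadjusted p under 0.05, beside 9.30% and 13.8% of all genes.

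Among 17 known partners and upstream regulators of WRKY proteins, 5 were higher in KO and 1 lower, beside the same 18.0% and 14.2% of all genes. *ESP*, the epithiospecifier gene whose product antagonizes WRKY53, was lower in KO (-1.0 ± 0.23, SE, adjusted p = 0.0295) and in SRDX (-0.87 ± 0.23, SE, adjusted p = 0.0549), on the same WT arrays. The MAP kinase kinase genes *MKK4* and *MKK1*, which act upstream of several WRKY proteins, were higher in KO by 0.62 and 0.54. *WHY1*, a gene for a single-stranded DNA-binding protein that represses *WRKY53*, was higher in SRDX (0.55). In OX, none of 16 passed, and 2 were higher and 1 lower at an unadjusted p under 0.05, beside 9.30% and 13.8% of all genes.

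Of 13 tested genes known as WRKY targets, 3 were lower in KO and 4 in SRDX, beside 14.2% and 8.85% of all genes, and none was higher in either, also at an unadjusted p under 0.05. *PHO1*, which loads phosphate into the xylem and is a target of WRKY6 and WRKY42, was lower in both (-1.08 ± 0.21 and -0.94 ± 0.21, SE, adjusted p = 0.0207 and 0.0381). *JAZ8*, a jasmonic acid repressor gene, differed by -2.50 and the ethylene synthesis gene *ACS2* by -0.80 in KO. *SARD1*, a regulator of salicylic acid synthesis, differed by -0.89 and *SIRK* by -0.77 in SRDX. In OX, none of 9 tested targets passed, with 2 higher and none lower at an unadjusted p under 0.05, beside 9.30% and 13.8% of all genes. In WT, 12 of 13 targets were higher at 5 DAD than at 50 DAS, beside 45.9% of all genes. Among them, *CYP71A13*, *ACS2*, *JAZ8* and *PR1* were tested only because of their signal at 5 DAD, so the filter favoured a higher call. The same applied to *JAZ4*, which was not higher.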

How the data were processed

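For each of the 15 arrays the authors deposited background-subtracted spot intensities and, per spot, flags that mark outliers, saturation or a signal clear of the background. Agilent Feature Extraction made them, in version 11.5.1.1 per the file headers but 9.1.3.1 per the submitters' processing notes. They also deposited a table of normalized values on a natural log scale, whose base was read from its slope against the scanner intensities (0.856 to 1.084 among bright spots). It was used only as an alternative.

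Spots with an outlier flag (1 to 13 per array) were left out, each array was scaled to the median of its spots free of both outlier flags, repeated spots were averaged, and all 15 arrays went through 1 quantile normalization before log2. Accessions were looked up in a reference table (assembly TAIR10.1), and 34348 of 43603 probes (78.8%) found a locus. The median ratio of signal to background was 5.17 to 11.48 per array, and the number of arrays limits the precision. Genes entered a test only when their probe stood well above background throughout 1 or both of the groups compared. The 6 arrays at 50 DAS, the 9 at 5 DAD and the 6 WT arrays had a fit each (limma 3.58.1, R 4.3.3), and the limit was a Benjamini-Hochberg adjusted p-value of 0.15. These fits were checked on simulated data with independent noise. That simulation held no slide effect and no line apart from the others, so it does not cover these limits. Exact permutation of 3 arrays against 3 gives no p-value under 0.1 for a single gene and was not used. Python 3.11.15 and matplotlib 3.10.9 drew the figures.

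The genes and lists were chosen with earlier results of these data known. Values per array are given for the 8 senescence regulators, for up to 5 rising and 5 falling genes past the limit without overlap in each genotype, and for others named as chosen later, and up to 3 genes are named of each other list. A likeness of patterns to *WRKY53* over the 5 group means was left out, since these means fall into clusters by stage. As alternatives, arrays were scaled to the 75th percentile or quantile normalized within each experiment. Other alternatives were normexp with an offset of 50 on the deposited median signals, the authors' table, other filters on dim probes, keeping outlier spots, the mean of all probes, Storey's q-values, 1 fit of all 15 arrays, a limit of 0.05 and the replicate number or slide as a block, and leaving out each array. The slide block was not run for OX or for the WT groups, where each slide held 1 group. No sequences or coordinates are given, since no genome was used here.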

Additional observations from a re-analysis of the deposited data

Results flagged for a closer look

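In the main fit, the effects of KO and SRDX on *WRKY70* differed by a test of the difference itself. Relative to the same WT arrays at 5 DAD, *WRKY70* was 0.71 higher in KO and differed by -0.28 in SRDX, and the difference between SRDX and KO was -0.997 on the log2 scale (limma, adjusted p = 0.139), lower in 3 of 3 SRDX lines. Over the fits that left out 1 array, this difference ranged from -1.12 to -0.84 and passed the limit in 3 of 9. It passed in 7 of the 14 other alternatives, where the lowest adjusted p by limma was 0.112. Against SRDX line 3 alone, on the slide of the KO arrays, the difference was -0.75.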

How the results depend on the processing

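Counts of WRKY genes past the limit are given here as higher/lower. For OX against WT (1/0), scaling to the 75th percentile gave 2 higher (28 of all 20647 genes) and quantile normalization within each experiment 3 (48 of 20647). The mean of all probes, the stricter filter on dim probes, a limit of 0.05 and the replicate block gave 0 each, beside 20, 0, 1 and 0 of all genes as higher. The fit of all 15 arrays gave 18/2, beside 2432 and 3298 of all 20647 genes, and Storey's q-values 20/4, beside 24.6% and 34.5% of all genes. For KO (6/2), the fit of all 15 arrays gave 1/1, beside 3929/2942 of all 25365 genes, and Storey's q-values 14/6 (28.5% and 24.7% of all genes). The stricter filter gave 4 lower (2264 of all 21161 genes), the limit of 0.05 0 lower (1200 of 25365) and the slide block 1 lower (1996 of 25365). For SRDX (1/5), the fit of all 15 arrays gave 0/2, beside 2440/1634 of all 25347 genes, and the limit of 0.05 gave 0/0, beside 1036/582. Storey's q-values gave 10 lower (4338 of 25347), the 75th percentile 2 (1669 of 25347), no filter 3 (1772 of 34665) and the slide block 3 (1504 of 25347). For SRDX against KO (0/1), the 75th percentile and Storey's q-values gave 2 lower (124 and 180 of all 22127 genes). Quantile normalization within each experiment, no filter, the stricter filter, the fit of all arrays, the limit of 0.05 and the replicate block gave 0, beside 56, 50, 4, 26, 4 and 11 of all genes as lower. For both WT groups (28/6), Storey's q-values gave 10 lower and passed all genes, and *WRKY17* turned to 0.15 (adjusted p = 0.254) with the mean of all probes, since its second probe differs in direction. With 1 array left out, the counts ranged from 0 to 22 and 0 to 3 in OX, 3 to 11 and 0 to 5 in KO, 0 to 5 and 0 to 9 in SRDX, 0 to 1 and 0 to 6 for SRDX against KO, and 28 to 29 and 5 to 7 for the WT groups. The extremes were reached without OX line 1 (22/3, beside 5527/6708 of all 21456 genes), without SRDX line 2 for KO (11/5, beside 5998/4798 of 25365), and without WT array 2 for KO (3/0, beside 1812/1242 of 25539). For SRDX against KO, the 6 lower were reached without SRDX line 3 (beside 1241 of 25459), where slide and genotype cannot be told apart. Replicate numbers mostly did not pair the arrays, with correlations of deviations from -0.261 to 0.297 between arrays of the same number. The exception was 0.715 between arrays 2 of SRDX and KO, where the highest value with another number was 0.00629. The replicate block gave 8/2 in KO, 1/6 in SRDX and 28/6 for WT, beside 4831/3828, 3161/2505 and 11921/10433 of all genes. Of values of the genes that passed, 91 of 104 kept side and direction under the alternatives in KO, 59 of 78 in SRDX, 8 of 12 in OX, 7 of 14 for SRDX against KO and 397 of 401 for the WT groups. Scaling moved the all-gene median of the WT comparison from 0.13 to 0.28 and 0.33. It moved the share of higher calls among all genes from 55.9% to 40.9% in KO (75th percentile), where 8 WRKY genes were higher and 2 lower, beside 3788 and 5470 of all 25365 genes. This share went from 34.3% to 64.0% for SRDX against KO, and from 95.0% to 73.8% in OX (within each experiment). The cause of these changes was not tested. Dim genes (*WRKY62*, *WRKY71*, *WRKY42* and *WRKY72*) are limited by their signal over background.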
